A study of Homo sapiens with 6 samples.

Results

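The 10 genes described here make and deliver the peptides that MHC class I molecules present. They are PSMB8, PSMB9 and PSMB10, PSME1 and PSME2, TAP1 and TAP2, TAPBP, NLRC5 and ERAP1, and they were chosen by name for their role in this pathway. All 10 were among the 25330 gene symbols counted and among the 14199 that had enough counts to be tested. The cells are of the human breast cancer line MDA-MB-231, an established triple-negative line that lacks the oestrogen receptor. In 1 group the cells carry a knockout of RNASEH2A, which encodes the active subunit of the RNase H2 enzyme that removes ribonucleotides from DNA, and the other is the CTRV2 control of the same line. Each group has 3 libraries, made from different passages of the cells, with no treatment and a shared batch label. The labels do not say whether the knockout is 1 clone or a pool, and p-values measure only the spread between passages.

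Cells cut worn or foreign proteins into short peptides in the proteasome. Interferon, above all interferon gamma, makes a cell build the immunoproteasome, in which PSMB8, PSMB9 and PSMB10 take the places of the constitutive catalytic subunits PSMB5, PSMB6 and PSMB7. PSME1 and PSME2 form the PA28 cap that opens the core. TAP1 and TAP2 pump the peptides into the endoplasmic reticulum, where tapasin, the product of TAPBP, helps to load them onto MHC I and the aminopeptidase ERAP1 trims them to length. NLRC5 is the transactivator of MHC I genes and works on the SXY-type promoters of these genes together with the RFX complex.

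Totals ran from 27928670 to 31596286 counts in the RNASEH2A KO libraries and from 25419877 to 29635083 in the CTRV2 control libraries. The 10 genes had between 338 and 19880 counts in a library. RNASEH2A itself had 7, 8 and 16 counts in the RNASEH2A KO libraries and 10, 6 and 15 in the CTRV2 control libraries. It was below the filter on low counts, and its counts do not check the genotype labels, so each direction below is that of the library labelled KO. RNASEH2A KO replicate 1 stood apart from its group: the chi-square statistic of its counts against KO replicates 2 and 3 was 34.2 and 22.2 per degree of freedom, against 6.61 between those replicates and 2.45 to 11.4 among the CTRV2 control libraries. The line's own markers were counted in both groups, with a summed level of 6115 to 6397 CPM (counts scaled to a library size adjusted by the trimmed mean of M values, TMM) in RNASEH2A KO libraries and 6365 to 6776 CPM in CTRV2 control libraries, and ESR1, the oestrogen receptor gene, had 0 counts in all 6.

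Promoters of these genes are known for binding sites of interferon regulatory factors, whose core letters are GAAANNGAA. RefSeq promoter windows on GRCh38.p14, 250 bases before to 50 bases after a start, were matched by symbol for 9 of the 10 genes, with 12 windows in all. NLRC5 was not among them. A search of both strands found these letters in the windows of 8 of the 9 genes, all except PSMB9, whereas 9.86% of the 27305 genes with a window and 8.11% of all 35116 windows hold them. Each stretch is printed on the gene's own strand, 5′ to 3′, because this match is the feature that most of the genes share, and the capitals mark the match or its reverse complement.
PSMB8, chr6:32844027-32844065, minus strand: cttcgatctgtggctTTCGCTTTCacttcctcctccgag
PSMB10, chr16:67936848-67936886, minus strand: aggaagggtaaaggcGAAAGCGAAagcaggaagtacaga
PSME1, chr14:24136185-24136223, plus strand: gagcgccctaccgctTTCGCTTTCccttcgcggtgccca
PSME2, chr14:24146615-24146653, minus strand: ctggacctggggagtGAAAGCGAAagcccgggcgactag
TAP1, chr6:32853808-32853852, minus strand: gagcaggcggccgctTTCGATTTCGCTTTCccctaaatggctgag
TAP2, chr6:32838774-32838812, minus strand: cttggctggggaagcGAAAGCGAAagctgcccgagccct
TAPBP, chr6:33314069-33314113, minus strand: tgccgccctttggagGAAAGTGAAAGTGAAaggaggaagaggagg
ERAP1, chr5:96807919-96807957, minus strand: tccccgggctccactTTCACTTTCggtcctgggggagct

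In TAP1 and in TAPBP 2 overlapping matches follow each other, and the other 6 stretches hold 1 match each. The match begins at base -3 from the start in PSMB8, -21 in PSMB10, -28 in PSME2, -58 in TAP2, -20 in TAPBP and -133 in TAP1, and 3 and 6 bases after the start in ERAP1 and PSME1. PSMB9 and TAP1 start 488 bases apart on opposite strands and their windows share 13 bases. The GAAANNGAA matches of TAP1 lie between these starts, outside the PSMB9 window. The PSMB9 window is printed whole, since PSMB9 is the gene of these 9 without the letters in its window. Its capitals mark the 2 GC boxes (GGGCGG), and 68.3% of its bases are G or C.
PSMB9, chr6:32853942-32854241, plus strand: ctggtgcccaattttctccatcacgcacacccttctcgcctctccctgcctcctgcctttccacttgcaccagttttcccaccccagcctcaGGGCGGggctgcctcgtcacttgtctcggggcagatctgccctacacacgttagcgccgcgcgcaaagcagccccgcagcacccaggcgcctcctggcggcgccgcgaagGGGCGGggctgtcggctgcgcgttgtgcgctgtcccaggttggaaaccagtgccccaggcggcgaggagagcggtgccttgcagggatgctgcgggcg

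The letters of the GAS core (TTCNNNGAA), a motif of interferon gamma response, were in windows of PSMB8 and TAP1 and in 7.66% of all windows. Of the constitutive counterparts only PSMB5 had a window to search, and it holds the GAS letters too. GC boxes were in windows of 7 of the 9 genes and in 45.0% of all windows. The NF-kB consensus was in windows of TAP1, TAPBP and ERAP1, and in 5.91% of all windows. The matches that lie before the start on the gene's strand are shown because these 3 genes hold both the NF-kB and the interferon regulatory factor letters, with the NF-kB letters in capitals.
TAP1, chr6:32853752-32853791, minus strand: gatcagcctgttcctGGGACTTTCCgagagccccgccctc
TAPBP, chr6:33314110-33314149, minus strand: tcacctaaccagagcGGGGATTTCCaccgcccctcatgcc
ERAP1, chr5:96807994-96808033, minus strand: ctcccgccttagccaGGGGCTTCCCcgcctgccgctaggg

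The calls of other genes with and without a match are given beside this. Among the 963 tested genes outside the 10 that hold GAAANNGAA in a window, 6.54% were called higher and 6.75% lower in RNASEH2A KO libraries, with a median log2 fold change of 0.00301. Among the 10062 such genes without a match, 5.53% were called higher and 6.34% lower, with a median of -0.00314.

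All 10 genes had higher mean levels in RNASEH2A KO than in CTRV2 control libraries, by 0.08 (TAP2) to 0.41 (PSMB9) on the log2 scale, and 3 of them passed the test. Their median log2 fold change was 0.222, against 0.00354 over all tested genes, of which 50.6% had a positive value. A gene was called at an adjusted p under 0.05 in edgeR's quasi-likelihood test, with Benjamini-Hochberg adjustment over all 14199 genes. PSMB9, PSMB10 and PSME1 were called higher, where the background of genes called higher is 5.88%. None of the 10 was called lower, where the background is 6.22%. DESeq2 and limma-voom also called none lower, and 0 of the 10 fell at an unadjusted p under 0.05. A further 3 genes, PSMB8, PSME2 and ERAP1, had adjusted p between 0.05 and 0.065, and 6 had an unadjusted p under 0.05. In 7 of the 10 genes all 3 RNASEH2A KO values lay above all 3 CTRV2 control values, which was so for 16.1% of all tested genes, while 33.5% of tested genes had groups that did not overlap in either direction. The exceptions were TAP1, TAP2 and NLRC5.

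The count of 3 rests on single libraries. Without RNASEH2A KO replicate 1 the test called 7 of the 10 genes higher, namely PSMB8, PSME2, TAP1 and ERAP1 besides the 3. Without KO replicate 2 it called PSMB9 and PSME1, and without control replicate 1 the same 2 genes. PSMB9 alone was called without KO replicate 3 or without control replicate 2. Without control replicate 3 none was called, with 6 at an unadjusted p under 0.05. These fits have 1 library fewer in 1 group. Over all genes, 3430 were called without KO replicate 1 and 524 without KO replicate 3, against 1718 with all 6 libraries. Every gene kept a positive fold change in each of these fits except TAP2, which stood at -0.0156 without control replicate 1.

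**Figure D1:**
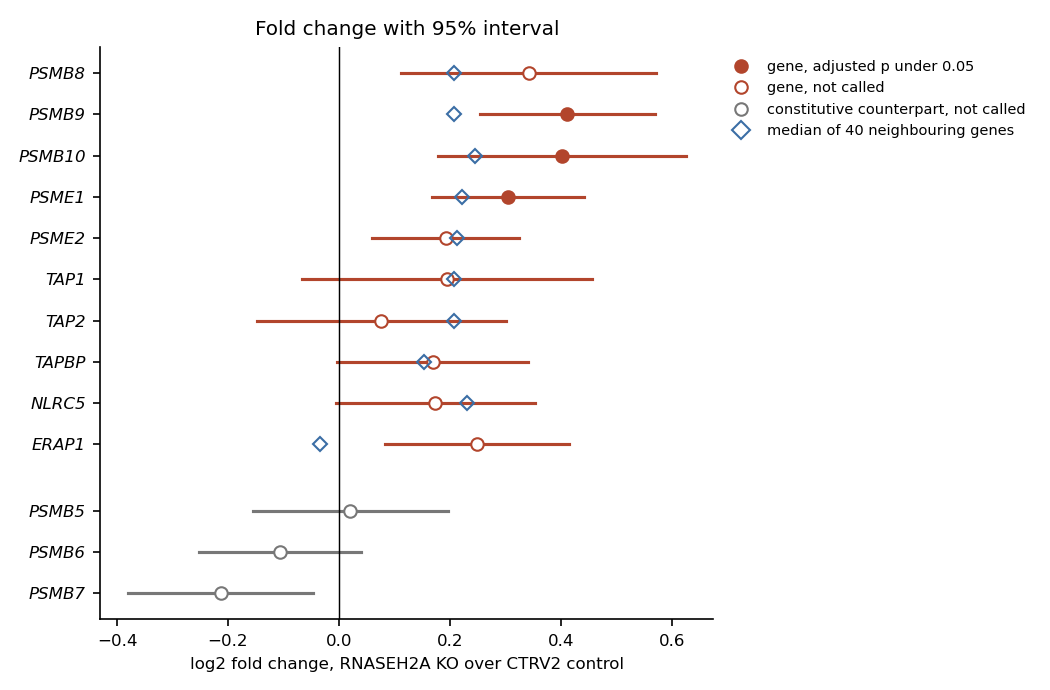
Log2 fold change of RNASEH2A KO over CTRV2 control for the 10 genes and for the constitutive subunits PSMB5, PSMB6 and PSMB7, with 95% intervals, and the median of each of the 10 genes' chromosomal neighbours. The 10 genes lie between 0.08 and 0.41, and the intervals of TAP1, TAP2, TAPBP and NLRC5 reach below 0.

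Levels are given in CPM on this TMM scale, as values of the 3 replicates in order, and errors of fold changes are standard errors (SE). In these bulk libraries fewer cells expressing a gene and less RNA per cell cannot be told apart. Of the 3 inducible catalytic subunits, PSMB9 and PSMB10 rose and PSMB8 missed the threshold.

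PSMB9 (chromosome 6, 32844136 to 32859585, plus strand, GENCODE 29 on GRCh38), the beta 1i subunit, replaces the beta 1 subunit, which cuts after acidic residues. Its level was 72.2, 79.3 and 74.4 CPM in RNASEH2A KO libraries, against 56.9, 58.4 and 54.5 CPM in CTRV2 control libraries. All KO values were higher, and the spread within a group was small, with means of 75.3 ± 3.64 CPM in KO and 56.6 ± 1.98 CPM in control libraries (SD, n = 3 each). The log2 fold change was 0.41 ± 0.07 (edgeR adjusted p = 0.00659), a 1.33-fold difference with a 95% interval of 0.25 to 0.57 on the log2 scale. Without control replicate 3 the adjusted p was 0.0522.

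PSMB10 (chromosome 16, 67934502 to 67937087, minus strand), the beta 2i subunit with trypsin-like activity, had the lowest level per kilobase of the 3. It stood at 16.3, 16.8 and 18.3 CPM in RNASEH2A KO libraries, against 12.2, 13.3 and 13.4 CPM in CTRV2 control libraries. The groups were well apart, with a log2 fold change of 0.40 ± 0.10 (edgeR adjusted p = 0.0298), a 1.32-fold difference. The call was lost on leaving out any library other than KO replicate 1, with adjusted p of 0.0504 without KO replicate 2, 0.133 without KO replicate 3, and 0.0955, 0.103 and 0.0966 without control replicates 1, 2 and 3. Of the exonic bases of its principal transcript, 45.3% are shared with AC040162.1 on the same strand, so counts of the pair may be split in a way the sources used here do not give.

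PSMB8 (chromosome 6, 32840717 to 32844703, minus strand), the beta 5i subunit with chymotrypsin-like activity, had a level of 107.6, 139.9 and 129.2 CPM in RNASEH2A KO libraries, against 89.9, 105.7 and 101.6 CPM in CTRV2 control libraries. The lowest KO value lay just above the highest control value, and replicate 1 was the lowest of each group. The log2 fold change of 0.34 ± 0.10 did not pass (edgeR adjusted p = 0.0603). Without KO replicate 1 it was 0.44 with an adjusted p of 0.0016, and with any other library left out the adjusted p was 0.114 to 0.203.

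**Figure D2:**
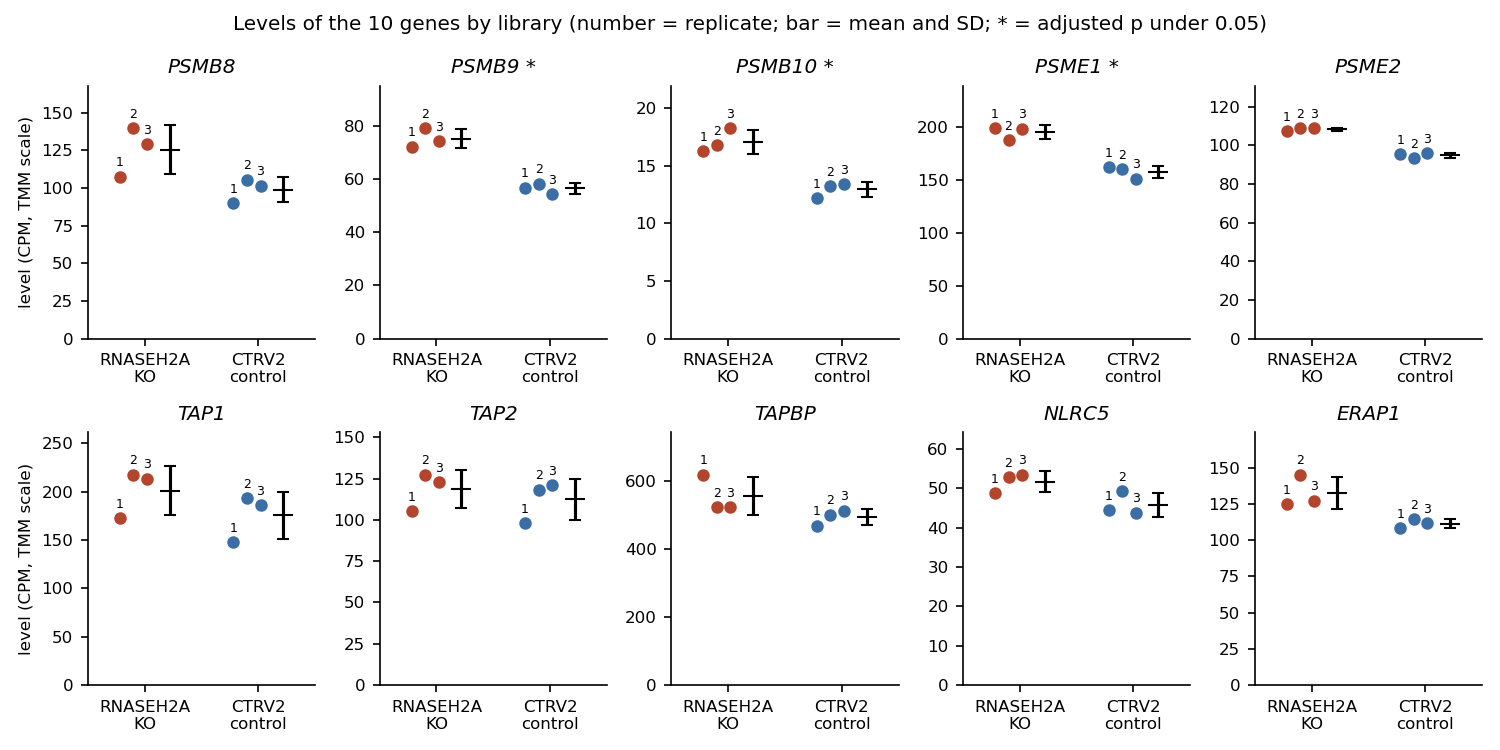
Level of each of the 10 genes in each library, in CPM on the TMM scale from 0, with RNASEH2A KO left and CTRV2 control right, the mean and SD of 3 libraries as a bar, and a star on the 3 genes called higher. Replicate 1 is the lowest library of both groups for PSMB8, PSMB10, TAP1, TAP2 and ERAP1, and for TAPBP it is the highest KO library.

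Levels of the constitutive counterparts stood near or below those of the CTRV2 control libraries. PSMB5, the beta 5 subunit, stood at 130.1, 153.6 and 157.2 CPM in RNASEH2A KO libraries, against 145.0, 144.0 and 145.5 CPM in CTRV2 control libraries. Its groups overlapped, and its log2 fold change was 0.02 ± 0.08 (edgeR adjusted p = 0.895). PSMB6, the beta 1 subunit, had 128.5, 137.4 and 138.1 CPM in KO libraries, against 151.6, 144.9 and 138.2 CPM in control libraries, a log2 fold change of -0.11 ± 0.07 (adjusted p = 0.329). PSMB7, the beta 2 subunit, had 177.8, 210.8 and 204.1 CPM in KO libraries, against 224.1, 237.1 and 226.0 CPM in control libraries. All KO values of PSMB6 and PSMB7 lay below all control values, by a narrow margin for PSMB6, and neither gene passed the test (PSMB7 -0.21 ± 0.07, adjusted p = 0.0944).

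The share of inducible over constitutive transcript was computed within each library, as a ratio of CPM per kilobase of principal transcript, which needs no scaling between libraries. For the beta 1 position, PSMB9 over PSMB6 was 0.612, 0.629 and 0.587 in RNASEH2A KO libraries, against 0.409, 0.439 and 0.430 in CTRV2 control libraries. For the beta 2 position, PSMB10 over PSMB7 was 0.0737, 0.0641 and 0.0721 in KO libraries, against 0.0439, 0.0450 and 0.0478 in control libraries. For the beta 5 position, PSMB8 over PSMB5 was 0.952, 1.05 and 0.946 in KO libraries, against 0.714, 0.845 and 0.804 in control libraries. At all 3 positions every KO library had a higher ratio than every control library. Among single tested genes 33.5% had groups that did not overlap, and no such share was computed for other gene pairs. With 0.5 CPM added to each level, the group means of the 3 ratios differed by 0.51, 0.60 and 0.32 on the log2 scale, or 1.43-, 1.52- and 1.25-fold. Leaving out a library kept these differences between 0.484 and 0.540, between 0.564 and 0.665, and between 0.251 and 0.372.

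The inducible transcript was at about the level of its constitutive counterpart at the beta 5 position in KO libraries and far below it at the beta 2 position in both groups. PSMB10 shares 45.3% of its exonic bases with AC040162.1 on the same strand and PSMB7 shares 0.0% with any gene. The level of the beta 2 ratio may therefore depend on how shared reads were counted, which was not tested. Each of the 3 ratios had an exact two-sided permutation p of 0.1, the smallest that 3 against 3 libraries can give, and of 0.12 after Benjamini-Hochberg adjustment over the 6 ratios computed. This exact test therefore cannot reach 0.05 for a ratio. The other 3 ratios were PSME1 over PSME2, TAP1 over TAP2 and TAP1 over PSMB9.

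**Figure D3:**
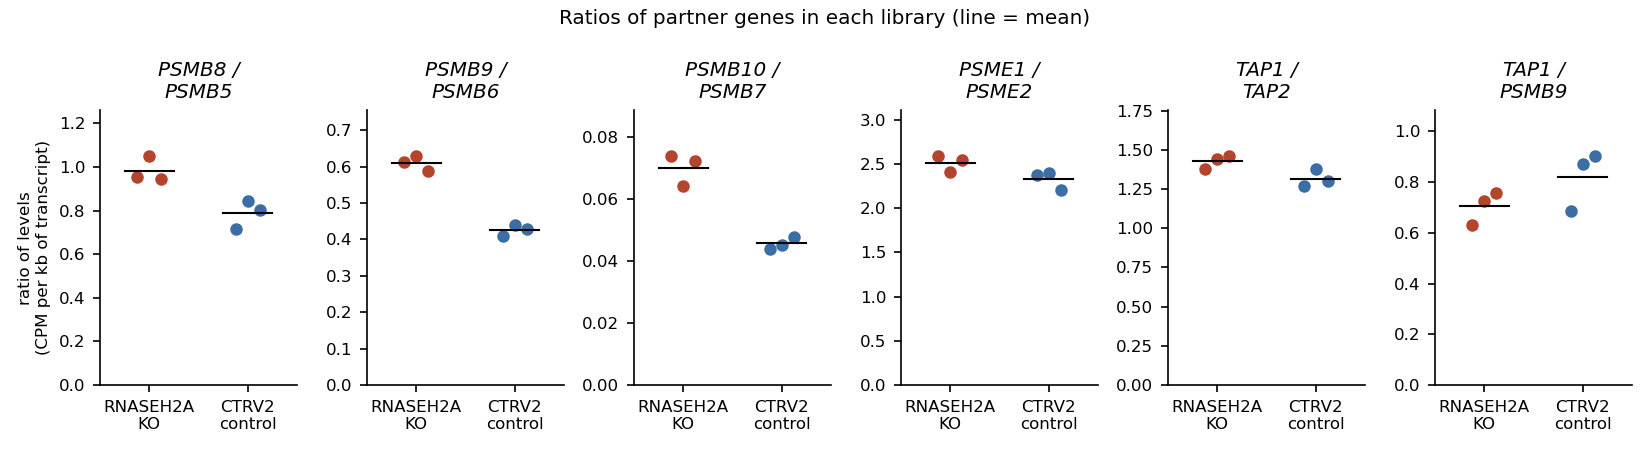
Ratios of levels (CPM per kilobase of transcript) of 6 gene pairs in each library, RNASEH2A KO left and CTRV2 control right, with lines at the means. The inducible over constitutive ratios of the 3 proteasome positions do not overlap between the groups, and TAP1 over PSMB9 does.

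The PA28 genes lie close together on chromosome 14, and both stood higher in RNASEH2A KO libraries. PSME1 (24136158 to 24138967, plus strand), PA28 alpha, had 199.4, 187.9 and 198.9 CPM in KO libraries, against 162.5, 160.3 and 151.6 CPM in CTRV2 control libraries. It rose by 0.31 ± 0.06 on the log2 scale (edgeR adjusted p = 0.0128), a 1.24-fold difference. The adjusted p was 0.0667 without control replicate 2, 0.0875 without control replicate 3 and 0.071 without KO replicate 3.

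PSME2 (24143362 to 24147570, minus strand), PA28 beta, the partner of PA28 alpha in the ring, had the tightest values of the 10. It stood at 107.4, 108.7 and 108.9 CPM in RNASEH2A KO libraries, against 95.3, 93.2 and 95.8 CPM in CTRV2 control libraries. The groups were far apart beside their spread, but the difference was small, 0.19 ± 0.06 on the log2 scale or 1.14-fold, and missed the threshold (edgeR adjusted p = 0.0637). Without KO replicate 1 the adjusted p was 0.0257, and with any other library left out it was 0.107 to 0.24. PSME1 over PSME2 per kilobase was 2.59, 2.41 and 2.55 in KO libraries, against 2.38, 2.40 and 2.21 in control libraries, which did not overlap but came close (log2 difference 0.11, exact permutation p = 0.1). Of the exonic bases of PSME2, 12.0% lie opposite RNF31, which had at most 12 counts in any library, and 0.895% of those of PSME1 lie opposite EMC9.

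None of TAP1, TAP2, TAPBP, ERAP1 and NLRC5 passed the test, though ERAP1 had an unadjusted p under 0.05 and was called by DESeq2. TAP1 (chromosome 6, 32845209 to 32853978, minus strand) had 172.2, 217.6 and 213.4 CPM in RNASEH2A KO libraries, against 147.9, 192.9 and 186.1 CPM in CTRV2 control libraries. Replicate 1 was by far the lowest of each group, so the groups overlapped through KO replicate 1. The log2 fold change of 0.20 ± 0.12 had an edgeR adjusted p of 0.314 and a 95% interval of -0.07 to 0.46. Without KO replicate 1 it was 0.30 with an adjusted p of 0.0385, and with any other library left out the adjusted p was 0.296 to 0.67.

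TAP2 (chromosome 6, 32821833 to 32838780, minus strand), the other chain of the transporter, had 105.4, 127.5 and 123.0 CPM in RNASEH2A KO libraries, against 98.1, 118.4 and 121.1 CPM in CTRV2 control libraries. Its difference was the smallest of the 10, 0.08 ± 0.10 (edgeR adjusted p = 0.671), with a 95% interval of -0.15 to 0.30. TAP1 over TAP2 was 1.38, 1.44 and 1.46 in KO libraries, against 1.27, 1.38 and 1.30 in control libraries, with the lowest KO ratio just above the highest control ratio (log2 difference 0.12, exact permutation p = 0.1). TAP2 shares 80.5% of its exonic bases with AL669918.1 on the same strand, and 15.4% of those of TAP1 lie opposite PSMB8-AS1, so these counts are less certain than those of PSMB8 and PSMB9.

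TAP1 and PSMB9, which start from neighbouring promoters, were also set against each other. TAP1 over PSMB9 was 0.630, 0.725 and 0.758 in RNASEH2A KO libraries, against 0.687, 0.873 and 0.903 in CTRV2 control libraries. The groups overlapped, and the log2 difference of -0.21 had an exact permutation p of 0.3.

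TAPBP (chromosome 6, 33299694 to 33314387, minus strand), which encodes tapasin, had the highest level per kilobase of the 10. It stood at 619.2, 523.7 and 524.0 CPM in RNASEH2A KO libraries, against 468.8, 501.1 and 513.0 CPM in CTRV2 control libraries. Most of the difference came from replicate 1, the highest of the KO and the lowest of the control libraries. The log2 fold change was 0.17 ± 0.08 (edgeR adjusted p = 0.189), and it was 0.08 without KO replicate 1.

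ERAP1 (chromosome 5, 96760810 to 96808100, minus strand), the trimming aminopeptidase, had 125.1, 145.4 and 127.3 CPM in RNASEH2A KO libraries, against 108.3, 114.4 and 112.0 CPM in CTRV2 control libraries. All KO values were higher, and the log2 fold change of 0.25 ± 0.07 missed the threshold (edgeR adjusted p = 0.0573), with a 95% interval of 0.08 to 0.41. It had an adjusted p of 0.00926 without KO replicate 1, and of 0.125 to 0.183 with any other library left out. CAST and AC008906.1 lie opposite 5.15% of its exonic bases.

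NLRC5 (chromosome 16, 56989485 to 57083531, plus strand), the transactivator, had 48.8, 52.9 and 53.5 CPM in RNASEH2A KO libraries, against 44.45, 49.3 and 43.8 CPM in CTRV2 control libraries. Control replicate 2 reached into the KO range, and the log2 fold change of 0.17 ± 0.08 did not pass (edgeR adjusted p = 0.192). Its 95% interval, -0.0054 to 0.35, holds both 0 and the fold change of PSME1.

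Per kilobase of principal transcript, TAPBP led the 10 genes, with 294.3 ± 29.1 CPM per kilobase in RNASEH2A KO libraries and 261.8 ± 12.1 in CTRV2 control libraries (SD, n = 3 each). PSME1 followed with 194.2 ± 6.46 in KO and 157.2 ± 5.75 in control libraries. PSMB8 had 111.7 ± 14.7 in KO and 88.15 ± 7.30 in control libraries, and PSMB9 96.3 ± 4.65 in KO and 72.37 ± 2.53 in control libraries. In KO libraries the ranges of PSMB8 and PSMB9 overlapped, although PSMB8 was the higher of the pair within each library, at 95.7, 124.5 and 115.0 for PSMB8 beside 92.4, 101.4 and 95.1 for PSMB9. PSME2, TAP1 and TAP2 came next, with means of 77.15, 67.95 and 47.51 in KO and 67.5, 59.35 and 45.07 in control libraries. ERAP1 (24.13 in KO and 20.31 in control libraries), PSMB10 (14.06 and 10.64) and NLRC5 (7.58 and 6.718) were the lowest. The order of the means was the same in both groups. PSMB10 and TAP2 share 45.3% and 80.5% of their exonic bases with another gene on the same strand, so their places in this order are less certain.

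Partners of the 10 genes were taken from lists of the same pathway. Of 20 tested genes for MHC I heavy chains, B2M, loading chaperones and the RFX enhanceosome, 5 were called higher, where the background is 5.88%. In this list 1 gene, RFXANK, was called lower, where the background is 6.22%, and the median log2 fold change was 0.171. HLA-F, HLA-B and HLA-C had the smallest adjusted p of the 5. HLA-B, a classical heavy chain that presents the peptides, had 1708, 1798 and 1934 CPM in RNASEH2A KO libraries, against 1138, 1264 and 1242 CPM in CTRV2 control libraries. It rose by 0.58 ± 0.07 (edgeR adjusted p = 0.00103), a larger estimate than that of any of the 10 genes, a difference that was not tested. HLA-C rose by 0.50 ± 0.06 (adjusted p = 0.0017). HLA-F, a non-classical heavy chain, rose by 1.09 ± 0.12 (adjusted p = 0.000792). The call of RFXANK was lost on leaving out any control library or KO replicate 3, and without KO replicate 1 the list had 2 genes lower. Reads of the near-identical HLA genes may be split among them by the counting, which is not described in the sources used here.

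B2M, the light chain, missed the threshold, with 742.6, 750.1 and 741.1 CPM in RNASEH2A KO libraries, against 650.2, 667.7 and 660.7 CPM in CTRV2 control libraries (log2 fold change 0.18 ± 0.05, edgeR adjusted p = 0.0517). Its groups were far apart beside their spread. The chaperones of the loading complex did not pass, with log2 fold changes of -0.01 for CALR (adjusted p = 0.940), 0.07 for CANX (0.631) and 0.16 for PDIA3 (0.304). The tapasin relative TAPBPL (0.27, adjusted p = 0.506) and the second trimming enzyme ERAP2 (0.26, adjusted p = 0.295) had few counts and wide intervals. RFX5, the DNA-binding partner of NLRC5, was at -0.04 (adjusted p = 0.769) and CIITA, the related transactivator of MHC II genes, at -0.16 (adjusted p = 0.585).

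In the rest of the proteasome edgeR called few genes, all lower in RNASEH2A KO libraries, where 6.22% of all tested genes were called lower. Of 13 tested constitutive core subunits edgeR called 0 in either direction, as did DESeq2 and limma-voom. Their median log2 fold change was -0.138 with 3 positive values, 0 were higher and 6 lower at an unadjusted p under 0.05, and without KO replicate 2 edgeR called 1 of them lower. Of 21 subunits of the regulatory particle 0 were called higher and 2 lower by edgeR, with a median of -0.0639. Those were PSMD13 (-0.41 ± 0.06, edgeR adjusted p = 0.00426) and PSMD5 (-0.24 ± 0.06, adjusted p = 0.0387), and the call of PSMD5 was lost on leaving out any control library or KO replicate 3, with adjusted p up to 0.167. Without KO replicate 1 the list had 3 genes called higher and 3 lower, and without KO replicate 2 it had 0 and 3. In this list 1 gene was higher and 5 lower at an unadjusted p under 0.05, and DESeq2 and limma-voom each called 0 higher and 3 lower.

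Among 10 genes for other activators, the inhibitor, assembly factors and transcription factors, edgeR called 0 higher and 1 lower, with a median of -0.095. PSMF1, the proteasome inhibitor PI31, fell by 0.40 ± 0.06 on the log2 scale (edgeR adjusted p = 0.00356). The alternative cap genes PSME3 and PSME4 stood at 0.01 ± 0.09 (adjusted p = 0.955) and -0.20 ± 0.06 (adjusted p = 0.0526), and POMP, which assembles the new core, at -0.23 ± 0.07 (adjusted p = 0.0739). Without KO replicate 1 the list had 1 gene called higher and 2 lower. Unadjusted, 1 gene of this list was higher and 3 lower, and DESeq2 called 0 higher and 2 lower. Of 8 cytosolic peptidases, which can destroy peptides before transport, BLMH (-0.34 ± 0.09, adjusted p = 0.0355) and THOP1 (-0.30 ± 0.09, adjusted p = 0.0495) were called lower and 0 higher. The backgrounds are 6.22% lower and 5.88% higher, and unadjusted this list had 0 higher and 3 lower. The calls of BLMH and THOP1 were lost on leaving out any control library or KO replicate 3, with adjusted p of 0.0867 to 0.178.

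Of the inducers, the 17 tested interferon receptors, JAK-STAT genes and IRF genes gave 0 calls in edgeR and limma-voom and 1 lower in DESeq2, with a median log2 fold change of -0.0341, and 1 higher and 5 lower at an unadjusted p under 0.05. IRF1, a factor that binds GAAANNGAA letters, had 50.6, 52.8 and 55.2 CPM in RNASEH2A KO libraries, against 44.9, 46.1 and 47.0 CPM in CTRV2 control libraries. All KO values were higher, but the log2 fold change of 0.20 ± 0.07 did not pass (edgeR adjusted p = 0.101). Without KO replicate 1 it passed, with an adjusted p of 0.0298, and the list then had 1 gene called higher and 2 lower. With any other library left out the adjusted p of IRF1 was 0.152 to 0.302.

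Of 26 tested interferon-induced genes, 5 were called higher and 0 lower by edgeR, where the backgrounds are 5.88% and 6.22%. The median log2 fold change of the 26 was 0.129, with 17 positive values. DESeq2 and limma-voom also called 5 higher and 0 lower, and 9 were higher and 2 lower at an unadjusted p under 0.05. IFI27 rose by 0.64 ± 0.08 (edgeR adjusted p = 0.00144), IFI35 by 0.43 ± 0.08 (0.00775) and TRIM21, a cytosolic antibody receptor, by 0.49 ± 0.11 (0.0172). IFIT3 and APOL1, named after their values were seen, make up the 5. IFI35 lost its call without control replicate 3 (adjusted p = 0.0535), and TRIM21 without control replicate 1 or 3 or KO replicate 3 (0.053, 0.0875 and 0.0835). The list had 7 genes called higher and 4 lower without KO replicate 1, and 2 higher and 1 lower without control replicate 1. It had 0 lower in the other fits, with 1 called higher without control replicate 3, 2 without KO replicate 3 and 3 without control replicate 2.

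Of 10 NF-kB subunits, inhibitors and feedback genes, edgeR and limma-voom each called 1 higher and DESeq2 2. Over all tested genes edgeR called 5.88% higher. The gene edgeR called was NFKBIA, the inhibitor that NF-kB itself induces (0.44 ± 0.11, adjusted p = 0.0294). It was highest in KO replicate 1, at 60.3 CPM, against 38.9 CPM in control replicate 1. The call was lost on leaving out any control library or KO replicate 3, with adjusted p of 0.0618 to 0.132, and without KO replicate 1 the list had 3 genes called higher and 2 lower.

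The choice of the 10 genes did not use their positions in the genome: 5 lie on chromosome 6, 2 on chromosome 14, 2 on chromosome 16 and 1 on chromosome 5. For each, the median log2 fold change was taken over the 20 nearest tested genes on each side in RefSeq order, with the 10 genes and the HLA genes set aside. Around PSMB8, PSMB9, TAP1 and TAP2, which share their surroundings on chromosome 6, 34 of the 40 neighbours had a positive fold change, and their median was 0.21. The median was 0.15 around TAPBP, 0.22 around PSME1, 0.21 around PSME2, 0.25 around PSMB10 and 0.23 around NLRC5. Over all placed genes the middle of these neighbour medians was 0.00288. Of 14084 genes, 7.33% had a neighbour median at or above that of TAPBP, the lowest of these 9. These 9 medians are not independent. PSME1 and PSME2 share most of their neighbours, and TAPBP shares many of its own with PSMB8, PSMB9, TAP1 and TAP2. ERAP1 differs from the other 9 genes, with a neighbour median of -0.03 and 17 of 40 neighbours positive.

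Most genes next to the 10 have other functions. HERPUD1, an endoplasmic reticulum stress gene beside NLRC5, stood at 0.68 (edgeR adjusted p = 0.000726), and CPNE2 on its other side at 0.26 (0.0319). PSKH1 beside PSMB10 stood at 0.32 (0.0289) and DCAF11 beside PSME1 at 0.38 (0.0151), while EMC9, between PSME1 and PSME2, stood at 0.12 (0.464). RGL2 and ZBTB22, on the sides of TAPBP, stood at 0.27 (0.0944) and 0.25 (0.0615). Next to TAP2 and PSMB9 lie the MHC II genes HLA-DOB (-1.48, 0.0873) and HLA-DMB (-0.62, 0.0742), which pointed the other way without passing the test. The value of HLA-DOB rests on few reads, with 6, 5 and 2 counts in KO libraries and 15, 11 and 9 in control libraries.

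**Figure D4:**
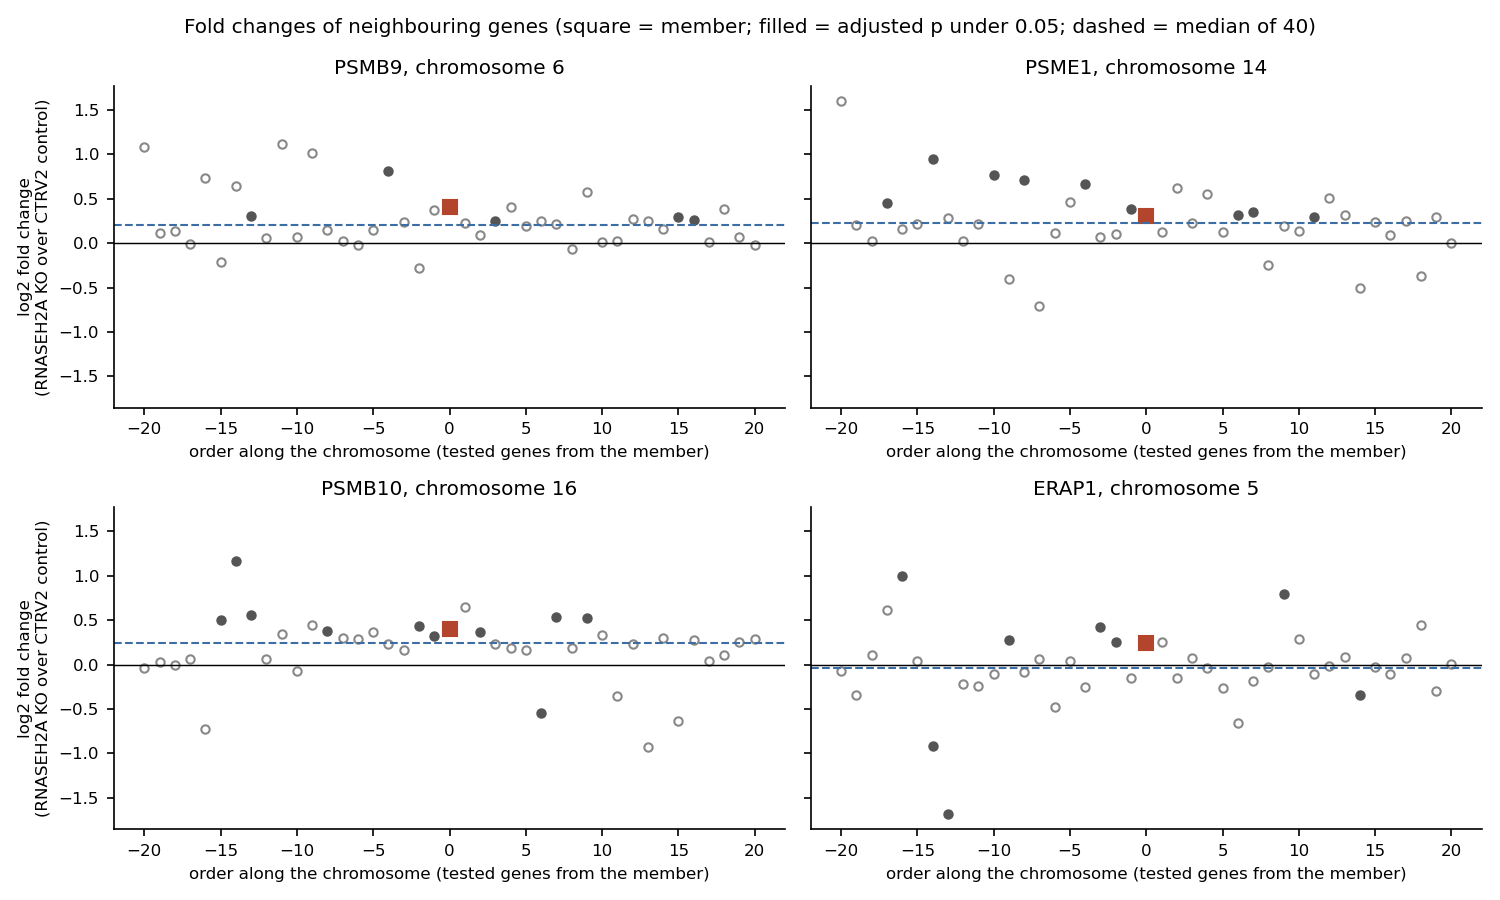
Log2 fold change of RNASEH2A KO over CTRV2 control for the 20 tested genes on each side of a member, in their order along the chromosome, with the member as a square, genes at an adjusted p under 0.05 filled and the median of the 40 neighbours dashed. The medians lie above 0 on chromosomes 6, 14 and 16 and near 0 around ERAP1 on chromosome 5.

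Of the 10 genes, 6 stood above their own neighbour median and 4 below it. When each gene's neighbour median was subtracted as an offset in the fit, edgeR called 0 of the 10 genes, with 2 at an unadjusted p under 0.05. PSMB9 then stood at 0.20 (adjusted p = 0.119), PSMB10 at 0.16 (0.387), PSME1 at 0.08 (0.456), PSMB8 at 0.13 (0.475) and ERAP1 at 0.28 (0.0514). HLA-B was still called under this offset, at 0.43 (0.00526), and PSMF1 was not (-0.06, 0.586). With the offset, 3 interferon-induced genes, 4 genes of the MHC I list and 0 of the NF-kB list were called higher. In each of these lists 0 were called lower. The offset was not applied to the ratios of gene pairs. The offset takes away everything that a gene shares with its neighbours, and the part of the neighbourhood in the levels of the 10 genes was not tested.

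**Figure D5:**
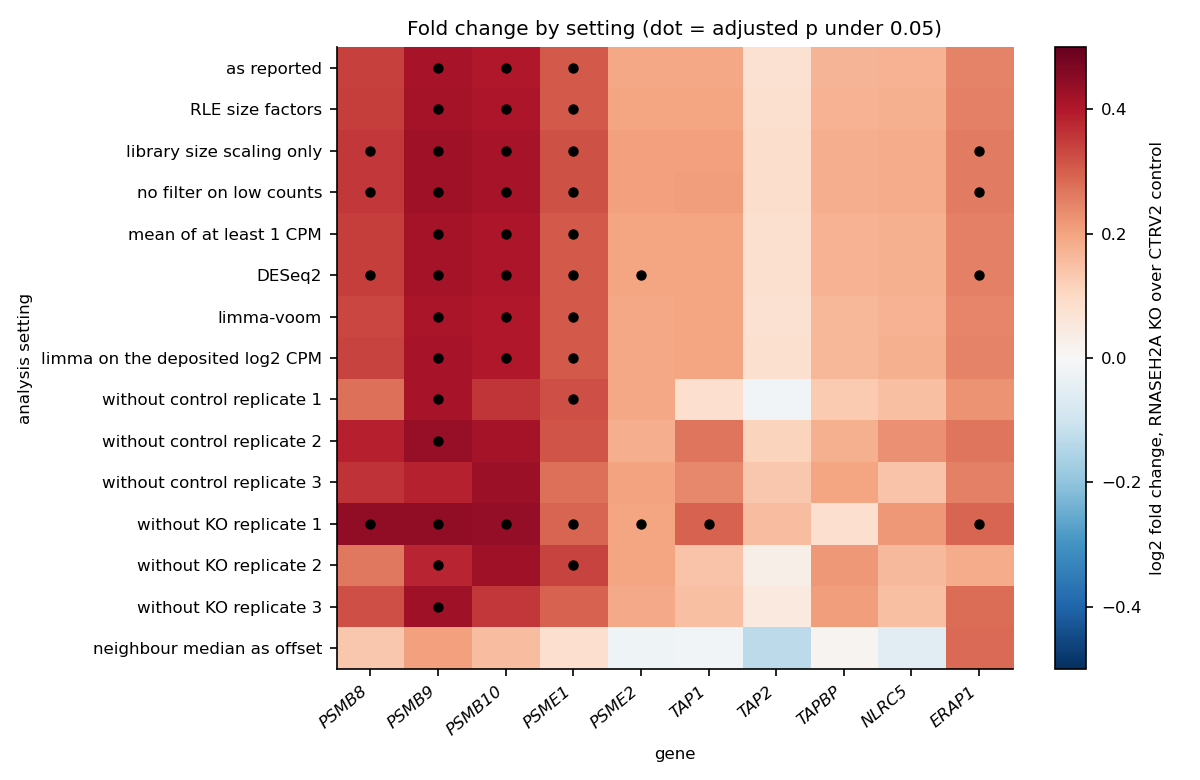
Log2 fold change of the 10 genes (columns) under other scalings, filters and tests and with each library left out (rows), with a dot where the adjusted p was under 0.05. The fits with glmTreat and with the replicate block are not drawn. PSMB9 carries a dot in most settings, TAP2, TAPBP and NLRC5 carry none, and the row with the neighbour offset has no dot and 4 values below 0.

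Of the marker lists for other cell types, the leukocyte list differed most between the groups. Of 10 leukocyte markers 8 were counted, and their summed level was 379.8 to 457.9 CPM in RNASEH2A KO libraries and 268.5 to 302.6 CPM in CTRV2 control libraries. Without CD74, an MHC II chaperone that tumour cells also express, it was 197.6 to 206.2 CPM in KO and 66.46 to 70.46 CPM in control libraries. Most of that sum is LAPTM5, at 187, 164 and 174 CPM in KO libraries and 63.3, 62.5 and 59.2 CPM in control libraries. LCP1 and LAPTM5 were called higher, and CD14 had 4.05, 2.44 and 2.50 CPM in KO libraries, against 3.78, 4.77 and 4.29 CPM in control libraries. ITGAM had 6, 0 and 0 counts in KO libraries and 4, 2 and 4 in control libraries. The defining marker PTPRC, however, had 0 counts in all 3 KO libraries, which allows 0.0949 to 0.107 CPM in a library, and 6, 4 and 6 counts in the control libraries, and TYROBP had 0 in all 6. Fibroblast markers (6 of 7 counted) summed to 46.15 to 93.19 CPM in KO and 49.31 to 54.4 CPM in control libraries, and endothelial markers (4 of 4) to 2.492 to 5.135 CPM in KO and 3.442 to 4.047 CPM in control libraries. Luminal epithelial markers (7 of 7) summed to 404.2 to 458.4 CPM in KO and 447.3 to 487.5 CPM in control libraries, with 2 called lower. The part of any of these in the levels of the 10 genes was not tested.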

How the data were processed

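Strand-specific libraries of poly-A RNA were sequenced, per the labels' protocols. FastQC and STAR version 2 and the GRCh38 build are named in the submitters' processing notes, and for the counter, its strand setting and its annotation the sources used here give nothing. The deposited table holds raw read counts per gene symbol, per the file headers and values. A deposited table of log2 CPM for 15066 genes, whose prior count is not given, served as an alternative.

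Groups came from the genotype label and replicate numbers from the sample titles. Genes kept by filterByExpr (14199) were tested in edgeR 4.0.16 (R 4.3.3) with TMM scaling and the quasi-likelihood F test on genotype, two-sided, with Benjamini-Hochberg adjustment over all of them. The test was tested on simulated data first. Fold change errors are the estimate divided by the root of F. Ratios were compared by exact permutation tests over libraries (scipy 1.17.1), on log2 ratios of CPM with 0.5 CPM added to each level. A count of 0 allows 3 counts, or 0.0949 to 0.118 CPM, which covers counting error only. Between 70.9% and 74.2% of genes with 4 to 29 counts had even counts, so reads may have been counted in pairs and the limit may be too low. No pair of replicates agreed within the sampling noise of independently counted reads, a limit that is too strict if reads were counted in pairs. All 6 libraries were kept.

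Exons and positions are from GENCODE 29 and promoter windows and gene order from RefSeq GRCh38.p14, in which 99.2% of tested genes were placed. The 10 genes and all lists were chosen with earlier results of these data known. Named genes are the 10, RNASEH2A, the constitutive counterparts, 14 regulators and partners fixed by name (not all reported here), up to 3 called genes with the smallest adjusted p in each list, and the nearest tested genes. Alternatives were RLE factors, library size scaling, no filter, a mean of at least 1 CPM, DESeq2 1.42.0, limma-voom and limma 3.58.1 on the deposited log2 CPM, glmTreat against 1.5-fold, a replicate block, the neighbour median as an offset, and leaving out each library.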

Additional observations from a re-analysis of the deposited data

How the results depend on the processing

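Of the 10 genes 3 were called in the reported fit, and 5 with library size scaling only, 5 with no filter, 6 with DESeq2, 0 with glmTreat against a 1.5-fold change (0 at an unadjusted p under 0.05) and 0 with the neighbour median as an offset (2 at an unadjusted p under 0.05). RLE factors, a mean of at least 1 CPM, limma-voom and limma on the deposited log2 CPM called the same 3 genes. Leaving out a library gave 0 to 7. Over all genes 1718 were called in the reported fit, 1700 with library size scaling only, 2246 with no filter and 2194 with DESeq2. With glmTreat the number was 153, and with a library left out it was 524 to 3430. The replicate numbers were not taken to pair the samples, because the labels do not say that equal numbers were handled together. Deviations of same-numbered libraries correlated with r of 0.316, 0.139 and 0.0855, and those of differently numbered ones with r of -0.243 to 0.141. With the replicate block 7 of the 10 genes and 3099 of all genes were called. The neighbour offset turned the sign for PSME2 (-0.0202), TAP1 (-0.0126), TAP2 (-0.131), NLRC5 (-0.0575), PSMB5 (-0.209), RFX5 (0.0423), CALR (0.249), CANX (-0.0242), PSME3 (-0.153) and EMC9 (-0.101), and library size scaling did so for CALR (0.00124). With a library left out, the log2 fold change ran from -0.0156 to 0.156 for TAP2, -0.0296 to 0.102 for PSMB5, -0.101 to 0.0392 for CALR, -0.0176 to 0.124 for CANX and -0.0791 to 0.09 for PSME3. The cause of these changes was not tested. Over single genes and lists, 875 values kept their direction and side of the threshold or stayed within 1.5 times the count. A further 42 passed the threshold anew, 74 no longer passed it, 57 moved and 20 changed sign. The ratios and the totals over the 10 genes and over all genes are not in this tally. With 3 libraries a group, an exact test of a single ratio cannot go below 0.1.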
